A study of Mus musculus with 17 samples.

Results

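The Ifi200 family genes on mouse chromosome 1 were followed in RNA of newborn testes and forebrain from wild-type mice and from mice lacking 1 or both copies of osteocalcin. The members were the rows of the deposited count table whose Ensembl identifiers carry the symbols Mndal, Mnda, Ifi203, Ifi204, Ifi207, Ifi208, Ifi209, Ifi211, Ifi213 and Aim2 in the GENCODE mouse annotation. Of these 10 symbols, Mnda is no GENCODE symbol and is a RefSeq synonym of Ifi211, so that they stand for 9 genes of the 55359 in the table. The symbols were selected on earlier results of these libraries, in which the mutant genotypes had been compared with WT. The values of the members against WT are therefore a description, and no p-value is given for them.

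The series holds 17 libraries of male pups at postnatal day 1, each from 1 organ. Testes gave 8 of them, namely 2 of WT, 3 of Ocn+/- and 3 of Ocn-/- pups, and forebrain gave 9, namely 3 per genotype. The sample labels call the brain tissue hippocampus, and the study's methods call it forebrain. The legend of the paper's forebrain heatmap gives 2 WT mice, where the series holds 3 WT libraries. It does not say which of them were shown, and all 3 were used here. All mice were of the Ocn_GK strain, in which the osteocalcin locus had been altered by homologous recombination in embryonic stem cells and which is kept on an inbred background other than C57BL/6J. WT pups had WT mothers, whereas Ocn+/- and Ocn-/- pups all had Ocn-/- mothers, so that between WT and mutant pups the genotype of the pup, that of the mother and the litter cannot be told apart. No source says whether replicates came from separate litters, and p-values measure only the spread between these libraries.

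The proteins of this family, also called PYHIN proteins, mostly join a pyrin domain, which binds other pyrin domains, to a HIN domain, which binds DNA. They are known as interferon-inducible proteins of the nucleus and cytoplasm, and several of them sense DNA. AIM2 assembles an inflammasome with the adaptor ASC on DNA in the cytoplasm, and IFI204 is known to signal from DNA through STING. The genes arose by repeated duplication, and their number and expression are known to vary between inbred mouse strains.

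All 9 genes lie within 592.0 kb of chromosome 1, between positions 173178445 and 173770436 of GRCm39. From the first base upwards the order is Aim2, Ifi213, Ifi209, Ifi208, Ifi207, Ifi204, Mndal, Ifi211 and Ifi203. Aim2, Ifi208 and Ifi209 are read from the plus strand and the other 6 from the minus strand. Osteocalcin itself lies on another chromosome.

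RefSeq's promoter table of GRCm38.p6 held 8 of the 9 genes, and the 250 bases before each start were searched for the core of the interferon-stimulated response element (ISRE), the site bound by interferon-activated STAT and IRF factors. The letters searched were GAAANNGAAA, on both strands. Of the 10 promoters that the table gives these 8 genes, 7 held this core, as did 2.98% of all 32851 promoters of the table. The 7 promoters belong to 6 genes. The windows are shown because they make visible how alike the starts of these genes are, with the core in capitals and 10 bases on each side.
Mndal, chr1:173880204-173880233, minus strand: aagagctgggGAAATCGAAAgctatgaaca
Ifi203, chr1:173942508-173942537, minus strand: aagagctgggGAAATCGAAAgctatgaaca
Ifi207, chr1:173741831-173741860, minus strand: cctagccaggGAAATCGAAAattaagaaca
Ifi208, chr1:173673597-173673626, plus strand: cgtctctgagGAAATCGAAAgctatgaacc
Ifi213, chr1:173599326-173599355, minus strand: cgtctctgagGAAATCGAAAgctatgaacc
Ifi211, chr1:173913064-173913093, minus strand: caaagccaggGAAATTGAAAgctatgaacg
Ifi209, chr1:173630770-173630799, plus strand: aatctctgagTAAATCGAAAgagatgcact

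The windows of Mndal and Ifi203 were identical, and so were those of Ifi208 and Ifi213. In Mndal the core ended 26 bases before the annotated start and in Ifi203 25 bases before it, in the second of the promoters that the table gives this gene. The window of Ifi209 matched that of Ifi214 at 27 of 30 bases and differed from it within the core by G1T, counted from 1 at the 5′ end of the core, so that the searched letters were absent. A further promoter of Mndal held a match on the opposite strand. The other promoter of Ifi203 and the promoter of Aim2 did not hold the core, and no member held the gamma-interferon site TTCNNNGAA, which 7.02% of all promoters held. The promoters of Mndal and Ifi203 were identical at 233 of 239 aligned bases. These matches are descriptions of letters and not of bound sites.

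The transcripts of the family also share sequence, which bears on how reads can be counted. Of the distinct stretches of 50 bases in its annotated transcripts, Mndal shared 20.3% with at least 1 other gene, the largest part with Ifi203. The share was 15.3% in Ifi203, 20.6% in Ifi204, 7.41% in Ifi207, 11.9% in Ifi213, 21.5% in Ifi208 and 34.2% in Ifi209. It was highest in Ifi211, with 68.5%, and lowest in Aim2, with 0.576% and none of it within the family. Where a read fits more than 1 gene, RSEM splits it between them, so that the counts of Mndal, Ifi203, Ifi204 and Ifi211 are not independent of each other, while those of Aim2 are nearly free of such sharing. The longest coding run that Mndal and Ifi203 have in common is 76 bases long and lies within 1 exon of each, on the minus strand of GRCm39, at chr1:173703156-173703231 in Mndal and at chr1:173765322-173765397 in Ifi203. It is shown because a read that falls within it could not be assigned to 1 of these genes.
Mndal and Ifi203: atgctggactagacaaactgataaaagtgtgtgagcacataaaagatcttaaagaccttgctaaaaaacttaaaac

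**Figure D1:**
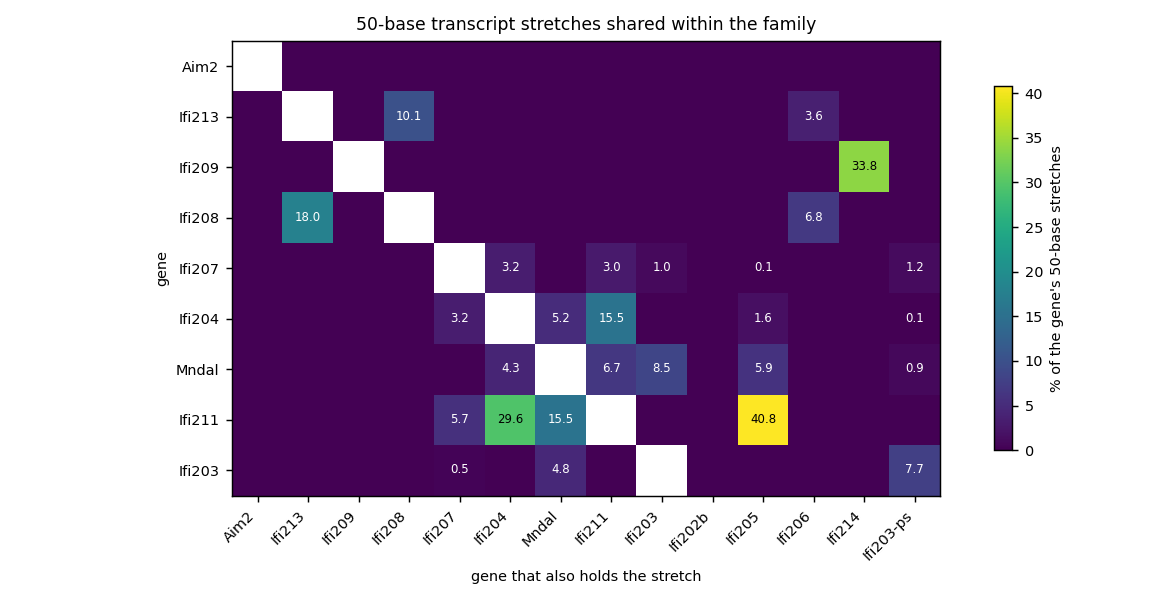
Share of the 50-base transcript stretches of each of the 9 genes (rows) that also occur in another gene of the family (columns), in percent of the gene in the row and with blank cells where row and column are the same gene. Aim2 shares no stretch within the family, Ifi211 shares 40.8% with Ifi205, and Mndal shares 8.47% with Ifi203.

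Reads were aligned to GRCm39, whose sequence is that of C57BL/6J mice and not of the strain used, and the effect of this on the counts of the family was not tested. The annotated span of Aim2 overlaps that of Cadm3, a cell adhesion gene of neurons on the opposite strand, but their exons share 0 bases. A pseudogene, Gm38050, lies within the span of Mndal on the same strand. Osteocalcin (Bglap) had at most 5 counts in any library and so does not check the genotype labels. Each testis library held 7302401 to 8289015 counts and each forebrain library 6518151 to 14621584. The forebrain library WT 3 stood apart, with the lowest total and with 8.50% of its counts on the ribosomal RNA gene Rn18s-rs5. The tissue labels were borne out by marker genes, since all 10 testis cell markers were lower and all 12 forebrain markers higher in forebrain than in testes in edgeR's quasi-likelihood test (adjusted p under 0.05).

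The level of the family was low in both organs. Levels are in CPM, the count scaled to a library of 1000000 counts after TMM normalization, and between genes they are compared per kb of the longest annotated transcript. In the 8 testes Mndal had the highest median, 1.92 CPM per kb (range 1.21 to 2.92), followed by Ifi203 with 1.68 (1.01 to 2.87), and the ranges of these neighbours overlapped nearly whole. Ifi204 with a median of 0.648 CPM per kb, Ifi207 with 0.619 and Aim2 with 0.519 came next and overlapped each other. Ifi211 had a median of 0.181 CPM per kb, and Ifi208, Ifi209 and Ifi213 had at most 3 counts in any library.

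In the 9 forebrains the order was another. Aim2 came first, with a median of 1.27 CPM per kb (range 0.585 to 1.95), followed by Mndal with 0.578 (0.0393 to 1.45) and Ifi203 with 0.546 (0.383 to 1.08), and these ranges overlapped. Ifi207 had a median of 0.165 CPM per kb and Ifi204 of 0.0943. Ifi211, Ifi209 and Ifi213 had no count in at least 5 of the forebrains. Ifi208 had 0 counts in all 9, which allows a level of up to 0.0273 CPM over the organ, counting error only. Aim2 took 42.8% of all counts of the 9 genes in forebrain and 9.72% in testes, whereas Ifi203 took 29.7% in forebrain and 46.1% in testes.

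**Figure D2:**
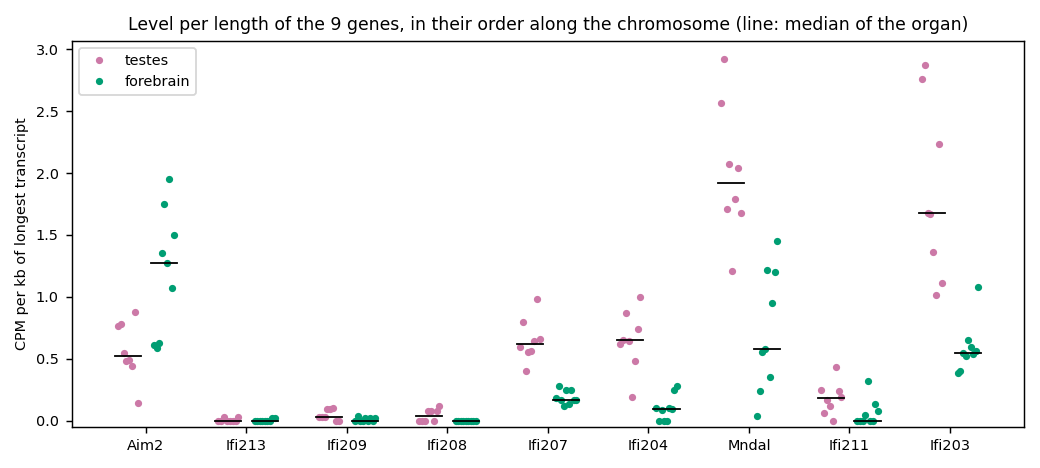
Level of each of the 9 genes in every library (points), in CPM per kb of the longest annotated transcript, by organ and in chromosomal order, with a line at the median of the organ. Over all genotypes Aim2 has its higher median in forebrain (1.27 against 0.519), although in WT it is higher in testes, and Mndal, Ifi203, Ifi204 and Ifi207 have theirs in testes.

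The contrast of the organs was not used in choosing the members, and it was tested in 1 fit of all 17 libraries. Ifi203 was lower in forebrain by a log2 difference of -1.70 (SE 0.18, edgeR's quasi-likelihood test, adjusted p = 6.00e-09) and Mndal by -1.80 (SE 0.28, adjusted p = 2.13e-06). In a fit of the mutant libraries alone these differences were -1.21 and -0.91, and both stayed called. The WT libraries went the same way. Ifi203 had 2.76 and 2.87 CPM per kb in WT testes and 0.383 to 0.546 in WT forebrains, and Mndal had 2.56 and 2.92 in WT testes and 0.0393 to 0.553 in WT forebrains. The organs cannot be told apart from any difference in how their libraries were made.

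For Aim2 the direction turned with the genotype. In WT it had 0.762 and 0.777 CPM per kb in testes and 0.585 to 0.629 in forebrain, so that every WT forebrain was below both WT testes. In the mutant genotypes it had 0.139 to 0.875 CPM per kb in testes and 1.07 to 1.95 in forebrain, so that every mutant forebrain was above every mutant testis. The log2 difference was 0.93 (SE 0.24) over all genotypes and 1.57 in the mutant libraries alone. The pooled value rests on the mutant libraries, whose values against WT were known when the members were chosen, and it is a description. Ifi207, with 3 to 12 counts, and Ifi204, with 0 to 9 counts in any forebrain, passed the filter on low counts through testes alone. Their direction was fixed by the filter, and their log2 differences of -1.74 (SE 0.26) and -2.96 (SE 0.48) are a description too. All 5 members in the fit were called, but so were 84.4% of all 17800 genes tested in this contrast, and the count is no result about the family.

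In testes the summed level of the family was lower in the mutant genotypes than in WT. The 9 genes together had 29.8 and 31.7 CPM in the WT testes. They had 17.3, 27.8 and 17.6 CPM in Ocn+/- and 20.5, 21.8 and 15.9 CPM in Ocn-/- testes. Every mutant library was below both WT libraries, and the mean over both mutant genotypes was 0.655 of the WT mean. A sum does not depend on how reads are divided among the 9 genes. In a bulk tissue, fewer cells that express the genes and less RNA per cell cannot be told apart.

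Ifi203, the member with the most counts in testes, carried most of this difference. It had 15.8 and 16.4 CPM in WT, 5.84, 12.7 and 6.46 CPM in Ocn+/- and 9.60, 9.69 and 7.71 CPM in Ocn-/- testes. All 6 mutant libraries were below the WT libraries, and Ocn+/- 2 was the nearest to them. The log2 fold change was -0.94 (SE 0.29) in Ocn+/- and -0.84 (SE 0.29) in Ocn-/- testes.

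Mndal, a nuclear protein of the family, had 6.22 and 7.07 CPM in WT, 4.38, 4.92 and 4.13 CPM in Ocn+/- and 4.15, 5.10 and 2.91 CPM in Ocn-/- testes. Again no mutant library reached the WT libraries. Its log2 fold change was -0.57 (SE 0.32) in Ocn+/- and -0.71 (SE 0.32) in Ocn-/- testes.

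Aim2, the inflammasome sensor, had 2.98 and 3.03 CPM in WT, 1.73, 3.41 and 0.550 CPM in Ocn+/- and 2.13, 1.91 and 1.90 CPM in Ocn-/- testes. The Ocn-/- libraries were all below WT, while Ocn+/- testes held both the highest and the lowest value of the organ. These CPM rest on 4 to 27 counts. The log2 fold change was -0.65 (SE 0.55) in Ocn+/- and -0.60 (SE 0.55) in Ocn-/- testes.

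Ifi207 had 2.46 and 3.28 CPM in WT, 2.66, 4.04 and 2.75 CPM in Ocn+/- and 1.66, 2.29 and 2.27 CPM in Ocn-/- testes. Its Ocn+/- values lay around those of WT and its Ocn-/- values below them, with log2 fold changes of 0.13 (SE 0.42) and -0.47 (SE 0.43). The DNA sensor Ifi204 had 1.68 and 1.77 CPM in WT, 1.33, 2.02 and 2.75 CPM in Ocn+/- and 2.37, 1.78 and 0.505 CPM in Ocn-/- testes. The genotypes overlapped, and the log2 fold changes were 0.23 (SE 0.59) and -0.14 (SE 0.60).

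The other 4 members did not pass the filter on low counts in either organ. Ifi211 had 4 and 1 counts in WT testes, after rounding, and 0 to 7 in mutant testes. Ifi208 had no count in WT testes and at most 3 in mutant testes. Ifi209 had 0 to 3 counts and Ifi213 0 or 1 in any testis.

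None of the 5 members tested in testes was called against WT at an adjusted p under 0.05 in either mutant genotype, where 8.25% of all genes tested were called in Ocn+/- and 5.64% in Ocn-/- testes. At an unadjusted p under 0.05 it was 1 member in Ocn+/- and 2 in Ocn-/- testes, where 25.9% and 23.0% of all genes passed that threshold. DESeq2 called 1 member, Ifi203, and 1696 of all genes in Ocn+/- testes, and 0 members and 1323 genes in Ocn-/- testes. Ifi203 was also called in both genotypes without the library Ocn+/- 2, in which its log2 fold change in Ocn+/- testes became -1.37, and in Ocn+/- testes without the library Ocn-/- 3. Without Ocn+/- 2 the log2 fold change of Aim2 in Ocn+/- testes was -1.37 as well, and without Ocn+/- 3 it was -0.22. The members were chosen with these contrasts known, and nothing is read from their number.

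**Figure D3:**
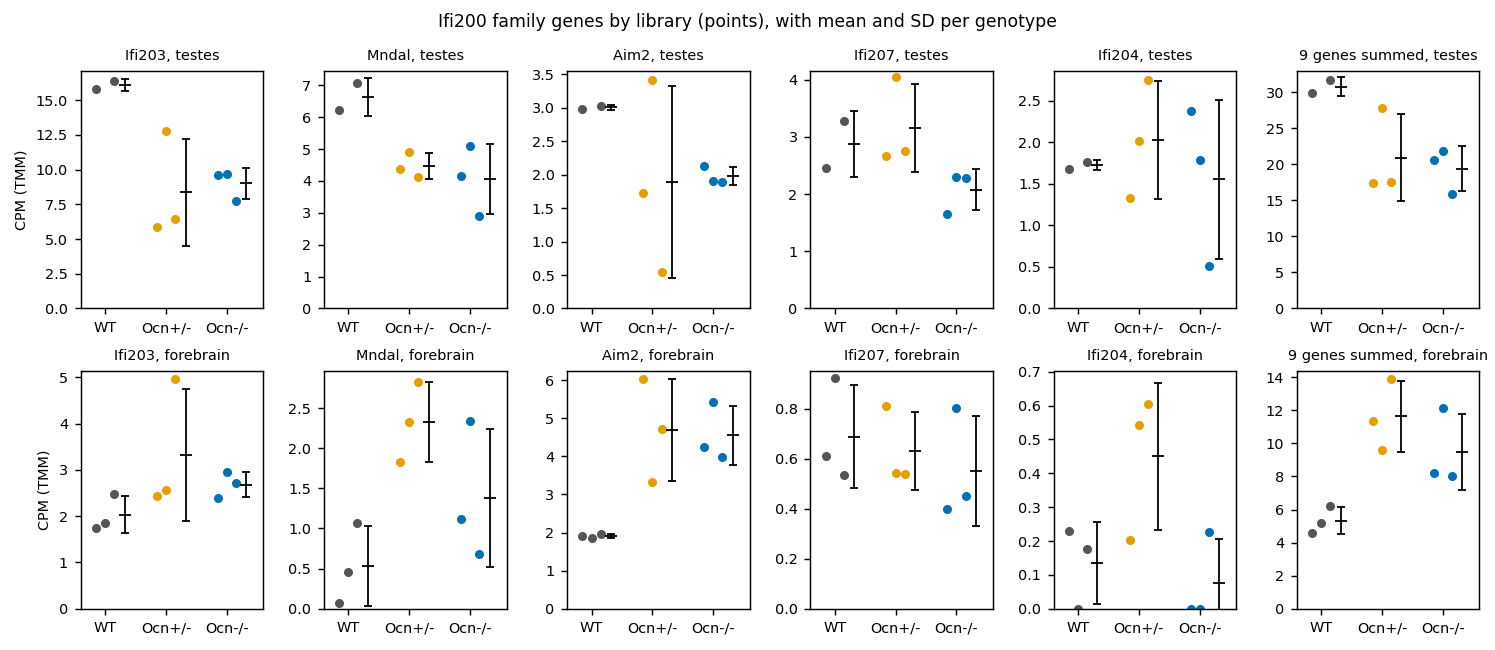
CPM (TMM) of the 5 members with the most counts and of all 9 genes summed, in testes (top) and forebrain (bottom), with 1 point per library and the mean and SD of each genotype beside the points. The sum is below WT in all 6 mutant testes and above WT in all 6 mutant forebrains, and the WT forebrains lie within 1.84 to 1.96 CPM for Aim2.

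In forebrain the summed level of the family was higher in the mutant genotypes than in WT. The 9 genes together had 4.58, 5.18 and 6.23 CPM in the WT forebrains. They had 11.4, 9.62 and 13.9 CPM in Ocn+/- and 8.23, 12.1 and 8.05 CPM in Ocn-/- forebrains. Every mutant library was above every WT library, and the mean over both mutant genotypes was 1.98 times the WT mean, or 2.16 times without WT 3.

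Aim2 contributed the largest part of the counts. It had 1.91, 1.84 and 1.96 CPM in WT, 6.02, 3.33 and 4.70 CPM in Ocn+/- and 4.23, 5.43 and 3.99 CPM in Ocn-/- forebrains. The WT libraries lay close together on 11 to 25 counts each, and the lowest mutant library was well above them. The log2 fold change was 1.30 (SE 0.29) in Ocn+/- and 1.26 (SE 0.29) in Ocn-/- forebrains. Cadm3, whose span overlaps that of Aim2, had log2 fold changes of -0.01 (SE 0.07, adjusted p = 0.967) and -0.08 (SE 0.07, adjusted p = 0.552), without a call.

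Mndal had 0.0763, 0.461 and 1.07 CPM in WT, 1.83, 2.32 and 2.82 CPM in Ocn+/- and 1.12, 2.34 and 0.677 CPM in Ocn-/- forebrains. All Ocn+/- libraries were above WT, while Ocn-/- 3 was below WT 3. The WT values rest on 1, 4 and 6 counts, and those of the mutant libraries on 9 to 42. The log2 fold change was 2.40 (SE 0.63) in Ocn+/- and 1.67 (SE 0.66) in Ocn-/- forebrains. Without WT 1 these values were 1.68 and 0.95, and without WT 3 they were 3.25 and 2.52.

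Ifi203 had 1.75, 1.84 and 2.49 CPM in WT, 2.43, 2.56 and 4.97 CPM in Ocn+/- and 2.40, 2.95 and 2.71 CPM in Ocn-/- forebrains. WT 3 overlapped the mutant libraries, and Ocn+/- 3 stood above all others. The log2 fold change was 0.75 (SE 0.34) in Ocn+/- and 0.44 (SE 0.34) in Ocn-/- forebrains, and without Ocn+/- 3 the former was 0.33.

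Ifi207 had 0.610, 0.922 and 0.534 CPM in WT, 0.812, 0.542 and 0.538 CPM in Ocn+/- and 0.399, 0.804 and 0.452 CPM in Ocn-/- forebrains. The genotypes overlapped, with log2 fold changes of -0.13 (SE 0.55) and -0.31 (SE 0.56). Ifi204 had 0 to 9 counts per forebrain and was not tested there. Ifi211 had no count in WT forebrains, 0 to 3 in Ocn+/- and 0 to 8 in Ocn-/- forebrains.

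Of the 4 members tested in forebrain, 2 (Aim2 and Mndal) were called in Ocn+/- and 1 (Aim2) in Ocn-/- mice, where 3.89% and 4.85% of all genes tested were called. Mndal passed the filter on low counts through the mutant libraries, so that its direction was fixed by the filter. The calls depended on single libraries. In Ocn+/- mice both were lost without WT 2 and without Ocn+/- 1, that of Aim2 without WT 3, and that of Mndal without WT 1, Ocn+/- 2 or Ocn+/- 3. In Ocn-/- mice the call of Aim2 was lost without WT 2, WT 3 or Ocn-/- 2. Over all alternatives to the processing, those without 1 library included, the log2 fold change of Aim2 ranged from 1.08 to 1.50 in Ocn+/- forebrains and from 1.11 to 1.35 in Ocn-/- forebrains. As in testes, these contrasts were known when the members were chosen, and nothing is read from the counts.

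**Figure D4:**
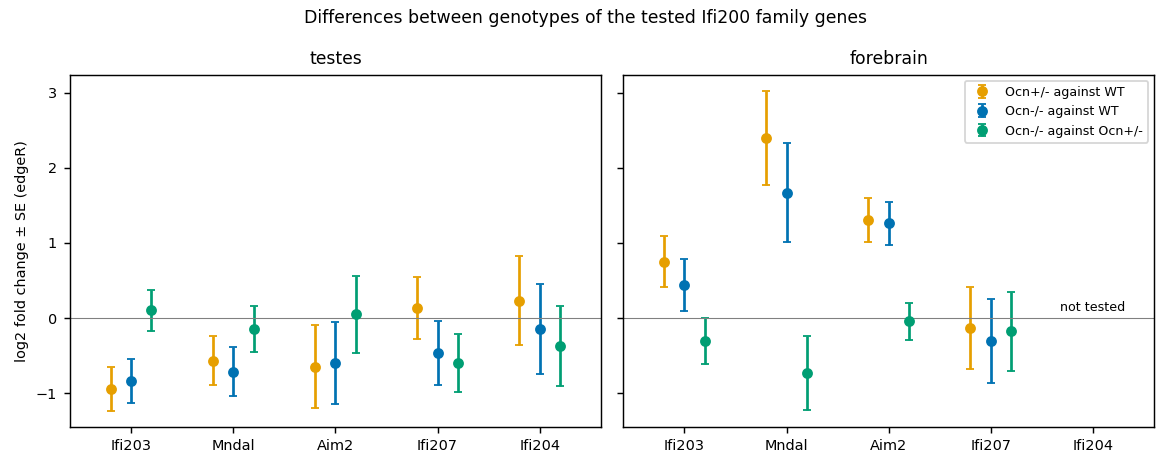
Log2 fold changes with their standard errors of the 5 members tested in testes (left) and the 4 tested in forebrain (right), for Ocn+/- against WT, Ocn-/- against WT and Ocn-/- against Ocn+/-. Ifi203, Mndal and Aim2 are below 0 against WT in testes and above 0 in forebrain, and the differences between the mutant genotypes lie between -0.73 and 0.10.

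The mutant genotypes, which share the genotype of the mother, were compared with each other in a contrast that was not used in choosing the members. In testes none of the 5 members differed between Ocn-/- and Ocn+/- mice, with adjusted p between 0.567 and 0.979 in edgeR's quasi-likelihood test. The log2 difference of Ifi203 was 0.10 (95% interval -0.43 to 0.64), that of Mndal -0.15 (-0.74 to 0.45), that of Aim2 0.05 (-0.95 to 1.06), that of Ifi204 -0.38 (-1.42 to 0.67) and that of Ifi207 -0.60 (-1.35 to 0.15). The intervals are wide, and the test does not show that the genotypes were alike. Of all genes tested, 0 were called, or 0.0%, with 1881 genes at an unadjusted p under 0.05, none of them a member, and 70 genes called by DESeq2.

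In forebrain the same contrast gave an adjusted p of 0.999 for each of the 4 members tested. The log2 difference of Aim2 was -0.04 (95% interval -0.53 to 0.44), that of Ifi203 -0.31 (-0.91 to 0.30), that of Ifi207 -0.18 (-1.21 to 0.86) and that of Mndal -0.73 (-1.69 to 0.23). Of all genes tested 0.00622% were called, which is 1 gene and not a member, and no member had an unadjusted p under 0.05 or was called by DESeq2.

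Other genes of the family were taken from a list of 10 names, of which 5 are GENCODE symbols with rows of their own. Ifi202b, which codes for a HIN protein without a pyrin domain that is known to restrain AIM2, had 20 and 28 counts in WT testes. It had 0, 5 and 0 counts in Ocn+/- and 8, 0 and 0 in Ocn-/- testes. WT and mutant testes did not overlap, and the log2 fold change was -3.72 (SE 1.13) and -3.17 (SE 1.05), called in neither genotype. Ifi202b passed the filter on low counts through WT alone, which fixed the direction of these values. In forebrain Ifi202b had 0 to 4 counts in each library. Ifi203-ps, which shares more stretches with Ifi203 than any other gene, had no count in WT forebrains and up to 12 in mutant forebrains. In testes it had 0.648 and 0.757 CPM in WT, 0.825 to 2.02 CPM in Ocn+/- and 0.379 to 1.19 CPM in Ocn-/- mice, so that all Ocn+/- testes were above WT, where the summed members were below it. It passed the filter in neither organ. Ifi205, Ifi206 and Ifi214 had at most 3 counts in any library.

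Ifi202b is also known for differing between strains, being hardly expressed in C57BL/6 mice. Of other genes known to differ between C57BL/6J and the strain used, Nnt, a mitochondrial enzyme of which C57BL/6J mice carry a deleted form, was expressed in all 17 libraries. It had 83.8 and 42.6 CPM in WT, 33.1, 40.8 and 33.8 CPM in Ocn+/- and 33.2, 62.8 and 62.6 CPM in Ocn-/- testes, and 4.55 to 18.7 CPM in forebrain. Against WT it was called in no genotype or organ, with adjusted p between 0.197 and 0.986, although the Ocn+/- testes were all below both WT testes. The inflammatory caspase gene Casp4 had at most 8 counts in any library. What part the strain background of single litters has in these values was not tested.

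**Figure D5:**
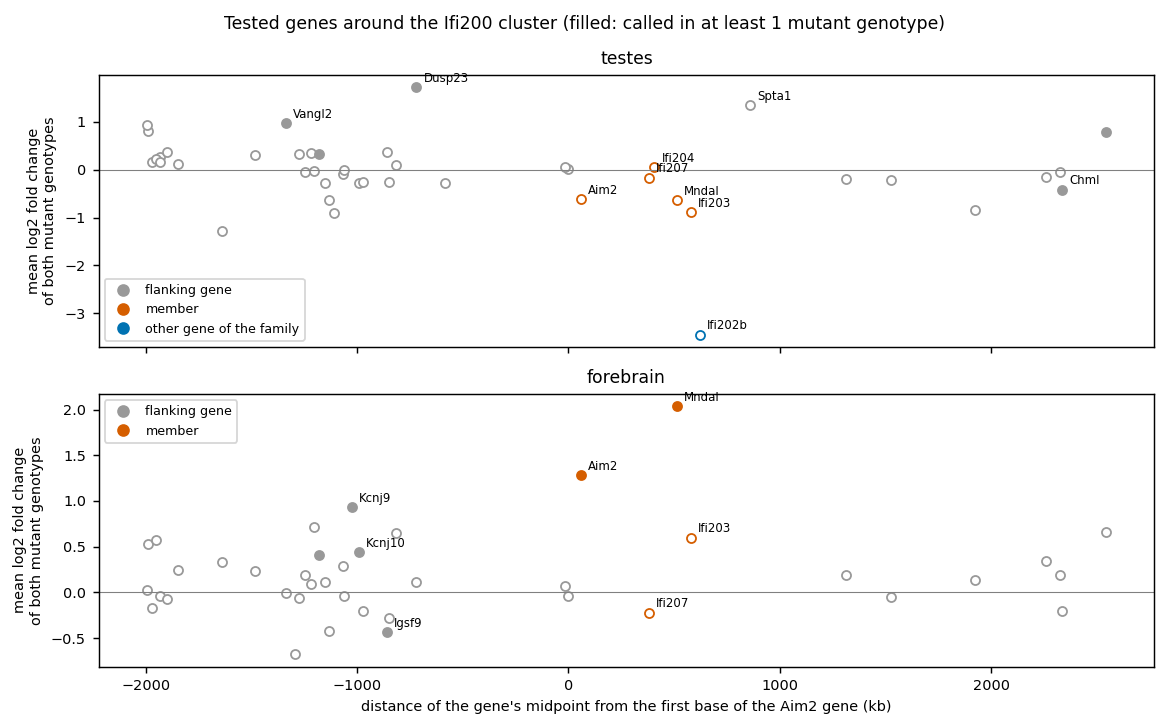
Mean log2 fold change of both mutant genotypes against WT for each tested gene within 2 Mb of the cluster, by the distance of the gene's midpoint from the first base of Aim2 in kb, in testes (top) and forebrain (bottom), with filled points for genes called in at least 1 mutant genotype. Ifi203, Mndal, Aim2 and Ifi202b lie below 0 in testes, Mndal and Aim2 lie highest in forebrain, and the called flanking genes lie on both sides of the cluster in testes and on the side of Aim2 in forebrain.

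The genes around the cluster were looked at as well, since they lie in the same stretch of chromosome. Within 2 Mb on either side 130 further genes are annotated, of which 38 were tested in testes and 36 in forebrain. In testes 5 of them (13.2%) were called in Ocn+/- and 3 (7.89%) in Ocn-/- mice, and in forebrain 3 (8.33%) in each genotype. Of all genes tested it was 8.25% and 5.64% in testes and 3.89% and 4.85% in forebrain, and with 3 to 5 flanking genes called nothing is read from the difference. In testes the phosphatase gene Dusp23, which passed the filter mainly through the mutant libraries, was called higher, from 1.28 ± 0.386 (SD, n = 2) CPM in WT to 4.69 CPM in Ocn+/- and 3.88 CPM in Ocn-/- mice, by 1.86 on the log2 scale (SE 0.43, adjusted p = 0.0167) and 1.59 (SE 0.43, adjusted p = 0.0396). The planar cell polarity gene Vangl2 rose by 1.02 (SE 0.17, adjusted p = 0.00323) and 0.92 (SE 0.17, adjusted p = 0.0063), and Chml fell in Ocn+/- testes by 0.55 on the log2 scale (adjusted p = 0.0465). The value of Chml in Ocn-/- testes was -0.29 (adjusted p = 0.304), and between the mutant genotypes Chml was not called (adjusted p = 0.503). In forebrain the potassium channel gene Kcnj10 rose by 0.45 (SE 0.12, adjusted p = 0.0425) and 0.44 (SE 0.12, adjusted p = 0.0413), Kcnj9 rose in Ocn-/- mice by 1.04 (SE 0.24, adjusted p = 0.0168), and Igsf9 fell in Ocn+/- mice by 0.49 on the log2 scale (adjusted p = 0.0236). Kcnj9 had a log2 fold change of 0.82 in Ocn+/- mice (adjusted p = 0.0583) and Igsf9 one of -0.37 in Ocn-/- mice (adjusted p = 0.0683). Ackr1 and Cadm3, the tested genes nearest to Aim2, were called against WT in neither organ.

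Interferon induces many genes besides this family. Of a list of 47 interferon-stimulated genes 41 were tested in testes, where 4 were called lower in Ocn+/- and 5 in Ocn-/- mice and none higher, where 8.25% and 5.64% of all genes tested were called in either direction. The count in Ocn+/- testes is near that share. The median log2 fold change over the list was -0.20 and -0.41, where that of all genes was 0.007 and -0.006. Isg15, a ubiquitin-like modifier, had 2.94 ± 0.0552 (SD, n = 2) CPM in WT, 0.442 ± 0.308 (n = 3) CPM in Ocn+/- and 0.417 ± 0.156 (n = 3) CPM in Ocn-/- testes, and it passed the filter through WT alone. Ifi44 averaged 7.72 CPM in WT, 2.18 CPM in Ocn+/- and 1.64 CPM in Ocn-/- testes and fell in both, at log2 fold changes of -1.81 (SE 0.50, adjusted p = 0.038) and -2.22 (SE 0.51, adjusted p = 0.0203). In forebrain 31 of the list were tested, of which only Stat2, a transcription factor of the interferon response, was called. It was lower in Ocn+/- mice by 0.45 on the log2 scale (SE 0.12, adjusted p = 0.0473). Its log2 fold change in Ocn-/- mice was -0.20 (SE 0.12), without a call. The median of the list in forebrain was -0.01 in Ocn+/- and -0.20 in Ocn-/- mice.

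Among 10 interferons, receptors and kinases, 8 were tested in testes. The kinase Jak2 fell in both genotypes, by 0.83 and 0.91 on the log2 scale (SE 0.15 in each, adjusted p = 0.00559 and 0.00283). The receptor Ifngr1 fell in Ocn+/- testes by 0.53 (SE 0.14, adjusted p = 0.0328). Its value in Ocn-/- testes was -0.32 (SE 0.14), without a call. In forebrain 7 were tested and none was called in either genotype. Of the DNA sensing and STING pathway 12 genes were tested in each organ and none was called against WT. Sting1, the adaptor of this pathway, had log2 fold changes of -0.04 and -0.01 in testes and -0.08 and 0.19 in forebrain. Of 14 inflammasome genes 4 were tested in testes and 5 in forebrain, and none was called against WT. Pycard, which codes for the ASC adaptor that AIM2 needs, had log2 fold changes of 0.03 (SE 0.45) and -0.60 (SE 0.48) in forebrain, where the value of Casp1 was 0.21 (SE 0.49) and 0.51 (SE 0.48). Casp8, a caspase of cell death pathways, had the largest values of the list there, 1.17 (SE 0.34, adjusted p = 0.0595) and 1.15 (SE 0.34, adjusted p = 0.0568), short of the threshold.

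Markers of cell types that could carry these transcripts differed between the genotypes too. The 7 neutrophil markers summed to 41.0 and 66.9 CPM in WT testes and to between 3.44 and 14.2 CPM in the 6 mutant testes, with Elane at 0 in WT. Of the 5 tested, 3 were called lower in Ocn+/- and 4 in Ocn-/- testes, and the granule protein genes Ngp (log2 fold changes of -2.88 and -3.59) and Ltf (-3.21 and -2.94) were called in both. The low level in mutant testes let Ltf pass the filter mainly through WT. The 6 endothelial markers summed to 539 and 552 CPM in WT testes and to between 321 and 403 CPM in mutant testes, with 3 and 5 of 6 called lower, among them Pecam1 (log2 fold changes of -0.93 and -1.13) and Emcn (-0.92 and -1.03). The 15 markers of macrophages and microglia summed to 152.8 and 153.0 CPM in WT testes. They summed to 161.9 to 203.0 CPM in Ocn+/- testes, all above WT, and to 89.7 to 160.0 CPM in Ocn-/- testes. Of the 15, 9 were above 0 in Ocn+/- and 10 below 0 in Ocn-/- testes. Cx3cr1 and Cd68 were called higher in Ocn+/- testes, by 1.54 and 1.32 on the log2 scale. In Ocn-/- testes their values were 0.96 and 0.79, without a call. The 8 lymphocyte markers summed to 3.79 and 4.54 CPM in WT and to 2.55 to 4.81 CPM in mutant testes, with Cd3g and Nkg7 at 0 in WT. Fibroblast markers overlapped. Pdgfra was called lower in Ocn+/- testes, at a log2 fold change of -0.41, and was at -0.32 in Ocn-/- testes, without a call. Of 10 testis cell markers Sox9, a gene of Sertoli cells, was called higher in both genotypes, by 0.92 and 1.10. The part of these cell types in the lower level of the family was not tested.

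In forebrain the markers of macrophages and microglia, the cells in which the family is best known, summed to between 114.0 and 116.7 CPM in WT and between 107.6 and 141.6 CPM in mutant libraries. Of 14 tested 1 was called in each genotype, Cx3cr1, the fractalkine receptor of microglia, which rose by 0.84 (SE 0.17, adjusted p = 0.0113) in Ocn+/- and 0.91 (SE 0.17, adjusted p = 0.00582) in Ocn-/- mice. The endothelial markers overlapped (159 to 185 CPM in WT, 134.0 to 186 CPM in mutant libraries), with Kdr called lower in both genotypes. Pecam1 was called lower in Ocn+/- mice, at a log2 fold change of -0.60 (SE 0.16). Its value in Ocn-/- mice was -0.55 (SE 0.16), without a call. The 12 forebrain cell markers summed to 2168 to 2732 CPM in WT and to 1838 to 2150 CPM in mutant libraries, without overlap. In each mutant genotype 8 of them were below 0. Among them Slc17a7 was called higher in Ocn+/- mice, by 0.59 on the log2 scale. Its value in Ocn-/- mice was 0.45, without a call. None of 6 fibroblast markers was called. Neutrophil markers, with Elane at 0, were at most 2.99 CPM in sum and lymphocyte markers at most 1.34 CPM, with Cd3g, Cd8a, Ms4a1 and Nkg7 at 0 in all 9 forebrains. No tested marker of these cell types was called between the mutant genotypes in either organ. The part of microglia and of the other cell types in the higher level of the family was not tested.

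Genes outside the cluster were ranked by how closely they followed the family. The measure was Pearson's r with log2 CPM of the summed members over the 17 libraries, after each organ was centred on its own mean, among 14590 genes tested in both organs. The most alike were Layn (r = 0.845), Igf1 (0.829), Frmpd2 (0.817), Snai2 (0.804) and Mfhas1 (0.802). The least alike were Carhsp1 (-0.881), Man2a2 (-0.845), Lama3 (-0.84), Pdlim4 (-0.818) and Ice1 (-0.793). These values share their libraries and the difference between WT and mutant mice and are a description. Between members, r of Mndal with Ifi203 was 0.762 over the 8 testes and 0.752 over the 9 forebrains, that of Mndal with Aim2 0.477 and 0.721 and that of Ifi203 with Aim2 0.769 and 0.603, whereas Ifi207 had r between -0.268 and 0.398 with the other 3.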

How the data were processed

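RNA of 17 libraries (poly-A selected, NEBNext Ultra) was trimmed with Trim Galore 0.6.6, aligned to GRCm39 with STAR 2.7.8a and counted with RSEM 1.3.3 by the authors, who deposited unnormalized expected counts per gene. The GENCODE release, strandedness and read length are not given in the sources used here. Identifiers were matched to the GENCODE annotation of GRCm39 without their version (54749 of 55359 matched). None of the members had the version of that annotation. Libraries were grouped by their labels.

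Expected counts were rounded and fitted in edgeR 4.0.16 (R 4.3.3) per organ, all genotypes together, and for the organs in 1 fit, with TMM, filterByExpr and robust quasi-likelihood tests without covariates. Benjamini-Hochberg adjustment covered all genes tested, tests were two-sided, and an adjusted p under 0.05 was a call. Intervals are 1.96 standard errors. Log2 CPM used a prior count of 2. The fits were also run on simulated counts with differences added to genes drawn at random from those passing the filter. This does not test how shared reads are divided among the family. Total counts per library (6518151 to 14621584) limit what few-count members can show.

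The members and the gene lists were chosen with earlier results of these data known. All members are named. From lists of over 5 genes, the 2 called genes per organ and direction with the largest mean log2 fold change are named. A result that this rule covers is not reported here. Cadm3, Ackr1, Gm38050, Sting1, Pycard, Casp1 and Casp8 were named outside this rule, with their values seen. The 5 genes most and the 5 least like the summed members are named. Alternatives were upper quartile factors, library size alone, DESeq2 1.42.0, no filter, a mean of at least 1 CPM, a likelihood ratio test, a fit of the compared genotypes alone, a block for the replicate number and each library left out. Promoters came from RefSeq (GRCm38.p6). Ifi204 has no promoter there.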

Additional observations from a re-analysis of the deposited data

Results flagged for a closer look

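The summed level of the 9 genes moved in opposite directions in the organs. Both mutant genotypes together were at 0.655 of WT in testes, with all 6 mutant libraries below both WT libraries, and at 1.98 times WT in forebrain, with all 6 mutant libraries above all 3 WT libraries. The difference between the organs was not tested. The sums were carried by part of the family, mainly Ifi203 and Mndal in testes and Aim2 and Mndal in forebrain. Ifi207 had log2 fold changes in Ocn+/- and Ocn-/- mice of 0.13 and -0.47 in testes and of -0.13 and -0.31 in forebrain. Those of Ifi204 in testes were 0.23 and -0.14. The members were chosen with the contrasts against WT known, so that both ratios are a description. No single member showed complete separation in both organs. Groups of 2 and 3 libraries were too small to be searched for outlying samples.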

How the results depend on the processing

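The number of members called against WT moved with the processing. In testes, for Ocn+/- against WT, DESeq2, no filter on low counts and the likelihood ratio test gave 1 member each in place of 0, and leaving out 1 library gave 0 to 1. For Ocn-/- against WT in testes, no filter and a fit of only the genotypes compared gave 1 in place of 0, and leaving out 1 library gave 0 to 1. In forebrain, leaving out 1 library gave 0 to 2 members for Ocn+/- against WT, in place of 2, and 0 to 1 for Ocn-/- against WT, in place of 1, for which no filter gave 2. The median share of transcript stretches found in another gene was 20.3% at 50 bases, 11.9% at 75 and 5.82% at 100. The causes were not tested, apart from the length of the stretch. The count for the organs and those between the mutant genotypes stayed on their side, and the summed ratios stayed within 0.605 to 0.691 in testes and 1.85 to 2.16 in forebrain. No called value turned its direction.

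Numbers of all genes called moved more. In testes the main fit called 1350 genes for Ocn+/- against WT and 922 for Ocn-/- against WT. Leaving out a WT testis leaves 1 WT library, so that the spread comes from the mutant genotypes alone. Numbers called in those fits are therefore not compared. Without forebrain WT 3, 183 genes were called for Ocn+/- against WT in place of 625, and 189 for Ocn-/- in place of 780. Without filter it was 1265 and 1502 in forebrain and 2149 and 1763 in testes, and with the likelihood ratio test 944 in forebrain Ocn+/- and 1389 in testis Ocn-/- mice. Library size alone gave 369 in forebrain Ocn+/- mice, and the compared genotypes alone 2084 in testis Ocn+/- mice. Between the mutant genotypes no filter gave 34 in place of 1 in forebrain and 252 in place of 0 in testes, DESeq2 5 and 70, and the likelihood ratio test 5 and 59. For deviations of same-numbered libraries, the lowest and highest correlations were -0.094 and 0.087 among testes, and among forebrains -0.037 and 0.146. Deviations within groups of 2 or 3 libraries are tied to each other. These values therefore cannot decide whether the numbers are a pairing. With the replicate number as a block the members called were 0 and 0 in testes, 2 and 1 in forebrain and 5 between organs, as without it. Members of 1 to 30 counts per library are limited by depth.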
